A study of Homo sapiens with 6 samples.

Results

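The genes described here were 10 epithelial genes of the small-cell lung cancer (SCLC) line NCI-H146, taken from a table of 28395 genes. They were 5 keratins (*KRT7*, *KRT8*, *KRT15*, *KRT18* and *KRT19*), 3 RNA-binding splicing regulators (*ESRP1*, *ESRP2* and *RBM47*), the cell adhesion gene *CDH1* and the transcription factor gene *GRHL2*. *KRT15* and *RBM47* were chosen by their log2 fold change, because their counts were higher in the siKIFC1 libraries than in the control libraries, so their values are a description and carry no test. The other 8 were taken for their function. All 10 passed the filter on low counts. NCI-H146 (H146) is an established cell line grown in culture, and both groups came from this line with no genetic change. RNA was taken on day 2 after transfection with a negative control siRNA of scrambled sequence (3 libraries) or with a KIFC1 siRNA (3 libraries, siKIFC1). The libraries came from 1 cell line, and each group received 1 siRNA, so a change brought by the loss of KIFC1 and a change brought by the sequence of either siRNA cannot be told apart. The labels call the libraries biological replicates 1 to 3 of each group.

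Keratins are the intermediate filament proteins of epithelial cells. A type I chain pairs with a type II chain to build the filament, and in simple, single-layered epithelia the usual pair is keratin 18 with keratin 8, joined by keratin 7 and keratin 19. Keratin 15 is known from the basal cells of layered epithelia. ESRP1 and ESRP2 bind pre-mRNA and set the epithelial splice forms of genes such as *FGFR2*, *CD44* and *ENAH*, and RBM47 is an RNA-binding protein that also takes part in splicing, in mRNA stability and in C-to-U RNA editing with APOBEC1. CDH1 (E-cadherin) joins epithelial cells at adherens junctions, and GRHL2 activates *CDH1* and other junction genes. SCLC is a neuroendocrine carcinoma that keeps epithelial features such as EPCAM and simple keratins.

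The libraries held 15392374 to 17754458 counts on genes, with 19437 to 20472 genes at 1 count or more. The targeted gene *KIFC1* had 4 to 14 counts per control library and 0 or 1 per siKIFC1 library. In edgeR it fell short of a call (log2 fold change -3.66, SE 0.82, adjusted p = 0.0739), and with the replicate number as a block it was called lower (log2 fold change -3.65, adjusted p = 0.00459). Of the 32-base stretches of the *KIFC1* mRNA, 87.9% also lie on alternate sequences of the genome, and the part that this played in its low counts was not tested. Among the neuroendocrine markers, the control RPKM (counts divided by library size and by gene length in kilobases) was 558 ± 67.2 (SD, n = 3) for *UCHL1* and 239 ± 19.7 for *INSM1*. *NEUROD1* had 0 to 5 counts per library and *POU2F3*, the factor of the tuft-like subtype, 0 to 3. *CHGA*, another neuroendocrine marker, had 104 to 147 counts per control library (*NEUROD1*, *POU2F3* and *CHGA* were chosen after their values were seen). The labels call the cells small-cell lung cancer, and of 18 neuroendocrine SCLC markers 17 passed the filter on low counts.

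In the control libraries the 10 genes covered a wide range of levels, and the simple keratins led. Levels were compared in RPKM, which divides by the summed exon length of a gene. *KRT8* stood at 61.4 ± 2.96 (SD, n = 3), *KRT19* at 59.3 ± 3.37 and *KRT18* at 57.7 ± 4.64. These 3 overlapped across the control libraries, so their order was not resolved, and they lay at the 96.5, 96.3 and 96.2 percentiles of the tested genes. *ESRP1* followed at 34.4 ± 0.997 RPKM, *CDH1* at 15.6 ± 1.80, *ESRP2* at 4.21 ± 0.321 and *GRHL2* at 1.23 ± 0.145. Each of these 4 was separated from its neighbours in the order in all 3 control libraries. *ESRP1*, the better expressed of the pair of ESRP genes, lay at the 92.1 percentile and *ESRP2* at the 45.4 percentile. The lowest were *RBM47* at 0.440 ± 0.111, *KRT15* at 0.427 ± 0.131 and *KRT7* at 0.354 ± 0.130 RPKM. These 3 overlapped and lay between the 8.50 and the 10.7 percentile. Of the 10 genes, 7 kept their place when the length of the longest transcript replaced the summed exon length. *KRT7*, *RBM47* and *KRT15* changed places among themselves at the low end. At the top, the control means with that length were 148 for *KRT8*, 99.6 for *KRT19* and 84.9 for *KRT18*. The closeness of these 3 genes thus depends on the length used.

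**Figure D1:**
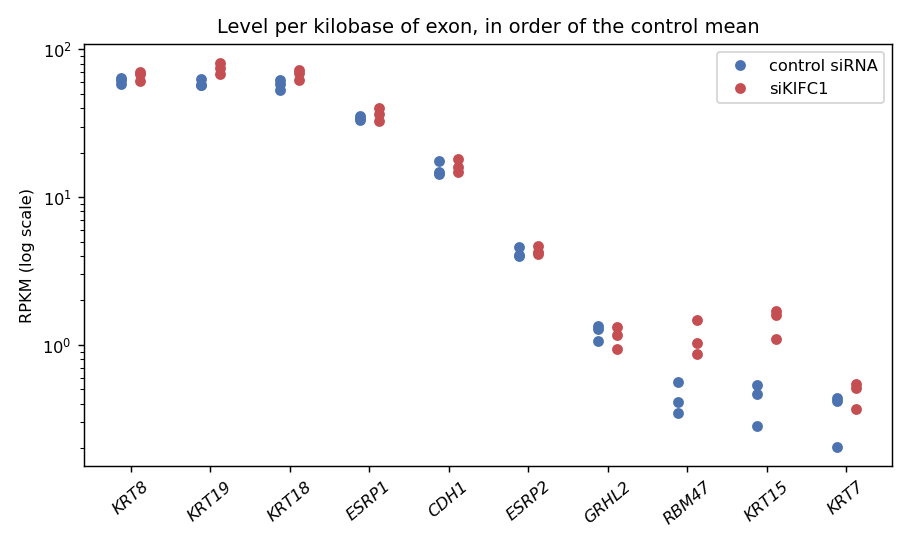
Level of each of the 10 genes in RPKM (log scale, vertical axis), with the genes ordered by the control mean; each point is 1 library, blue for control siRNA and red for siKIFC1. With the summed exon length, *KRT8*, *KRT19* and *KRT18* sit near 60 RPKM and share the top. *ESRP1*, *CDH1*, *ESRP2* and *GRHL2* step down without overlap between neighbours in the control libraries. *RBM47*, *KRT15* and *KRT7* lie below 0.6 RPKM in every control library.

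With siKIFC1, the low-level *KRT15* and *RBM47* were higher, which their choice fixes. The epithelial genes taken for their function had smaller fitted changes, a contrast that follows from the same choice. Of the 8 genes taken for their function, 0 had an adjusted p under 0.05 in edgeR, DESeq2 or limma-voom, all fitted without the replicate block. Over all 14777 genes tested in edgeR, 0.697% were called, 0.325% higher and 0.372% lower. At an unadjusted p under 0.05 there was 1 of the 8, *KRT19*, against 9.26% of all genes tested. The groups did not overlap for 1 of the 8 (*KRT19*, higher, 12.5%), against 7.99% of all genes for higher and 7.52% for lower. The log2 fold change was positive for 7 of the 8, and its median over the 8 was 0.10 (range -0.11 to 0.43), against a median of 0.01 and quartiles of -0.12 and 0.13 over all genes tested. In a fit with the replicate number as a block, *KRT19* was called higher and the other 7 were not called, against 2.75% of all genes called higher and 3.07% called lower in that fit. In bulk RNA, a change in the share of cells that express a gene and a change in the RNA per cell cannot be told apart.

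**Figure D2:**
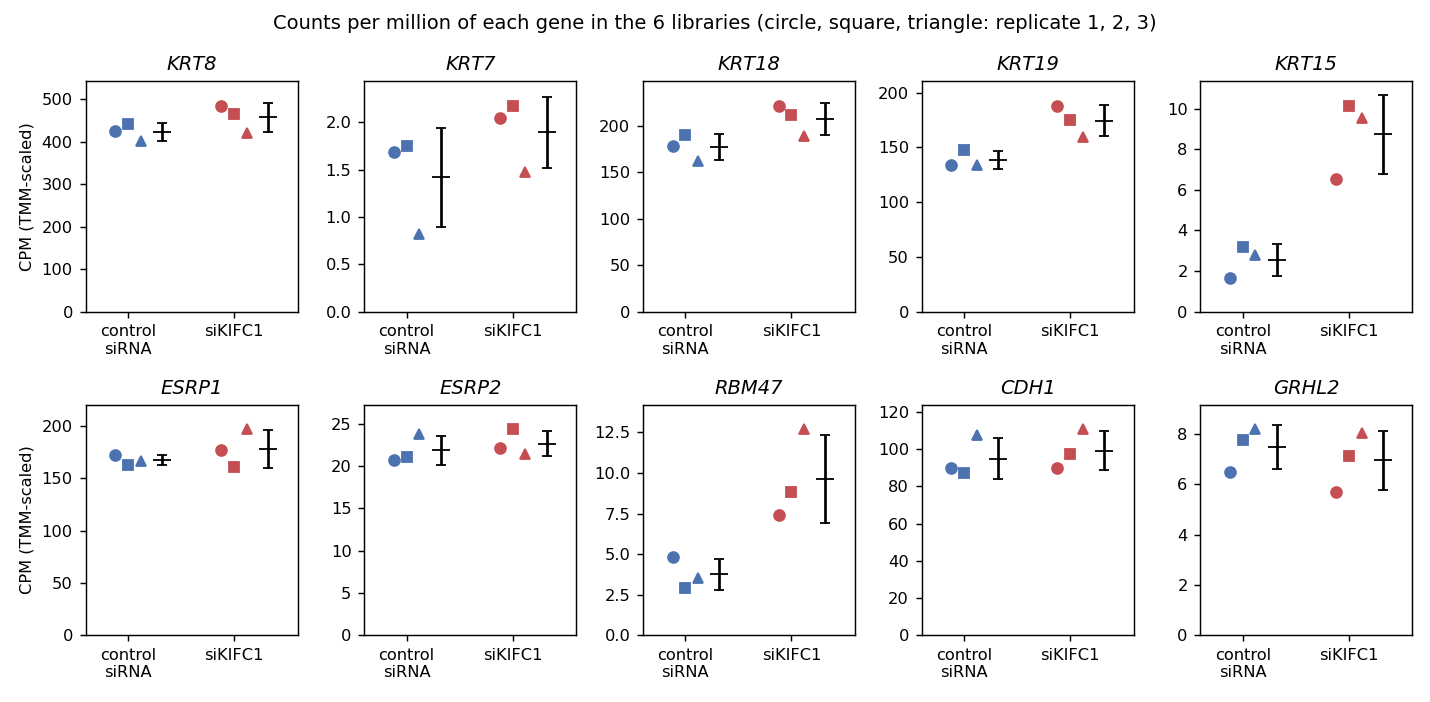
CPM (counts divided by the TMM-scaled library size, vertical axes from 0) of the 10 genes in each library; circles, squares and triangles are replicates 1, 2 and 3, blue is control siRNA, red is siKIFC1, and the black bars are the mean ± SD of the 3 libraries. The groups are apart for *KRT15* and *RBM47*, which were chosen for their rise, and for *KRT19*, and overlap for the other 7 genes.

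Among the type II keratins, *KRT8*, the main partner of keratin 18, had 425, 442 and 401 CPM in control replicates 1 to 3 and 484, 466 and 420.0 CPM in siKIFC1 replicates 1 to 3. The groups overlapped, since siKIFC1 replicate 3 lay below the 2 highest control libraries. This gave a log2 fold change of 0.11 (SE 0.10, 95% interval -0.11 to 0.33, adjusted p = 0.831 in edgeR). *KRT7*, a keratin of ducts and glands, was counted 28, 28 and 15 times in the control libraries and 32, 33 and 24 times in the siKIFC1 libraries. At this depth its log2 fold change of 0.43 had an interval from -0.30 to 1.15 (adjusted p = 0.797 in edgeR), wide enough to hold both no change and a rise of more than 1 on the log2 scale. Of the 26 type II keratins listed, 3 passed the filter, and 0 were called by edgeR, DESeq2 or limma-voom, with 0 at an unadjusted p under 0.05. The third was *KRT80*, a keratin tied to late differentiation, at 37.9 ± 1.67 RPKM in control cells, with a log2 fold change of -0.13 (SE 0.11, adjusted p = 0.807 in edgeR). *KRT5*, the type II keratin of basal cells, had 4 to 10 counts per library (chosen after its values were seen), and 5 of the 26 were at 0 in all 6 libraries.

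Among the type I keratins of simple epithelium, *KRT18* had 178, 191 and 162 CPM in the control libraries and 222, 212 and 189 CPM in the siKIFC1 libraries. Each siKIFC1 library was above the control library of its own number (ratios 1.24, 1.11 and 1.16), but siKIFC1 replicate 3 lay just below control replicate 2. In the fit it was 0.23 higher on the log2 scale (SE 0.11, 95% interval -0.01 to 0.46), with an adjusted p of 0.560 in edgeR and 0.0988 with the replicate block. *KRT19*, a type I keratin found alongside keratins 8 and 18 in simple epithelia, had 134, 148 and 134 CPM in the control libraries and 188, 175 and 160 CPM in the siKIFC1 libraries. All 3 siKIFC1 libraries were above all 3 control libraries. Its log2 fold change of 0.33 (SE 0.11, 95% interval 0.10 to 0.56) came with an adjusted p of 0.264 in edgeR, so the gene was not called. With the replicate block the adjusted p of *KRT19* in edgeR was 0.0147 at the same log2 fold change of 0.33. In the edgeR fit without a block, the adjusted p of *KRT19* was 0.0349 when siKIFC1 replicate 3 was left out. It lay above 0.05 without each of the other 5 libraries, up to 0.784.

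The values of *KRT8*, *KRT18* and *KRT19* are uncertain, since much of their sequence is shared with copies elsewhere, and the part that this played was not tested. Of the 32-base stretches of the mRNA, 70.4% for *KRT8*, 69.8% for *KRT18* and 11.2% for *KRT19* occur again at other sites of the primary genome sequence, and how the counting treated reads with several sites was not given in the sources used here. The table held 1 pseudogene of each, with 3 counts or fewer per library. The *KRT8* and *KRT18* spans also overlap by 1006 bases on opposite strands of chromosome 12, and the strand setting of the counting was not given. The same shares were 3.15% for *KRT15* and 1.28% for *RBM47*.

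*KRT15* showed the largest change of the 10 genes, from a low level. Counts were 28, 51 and 51 with control siRNA and 102, 154 and 156 with siKIFC1. On the CPM scale this was 1.68, 3.19 and 2.78 against 6.51, 10.1 and 9.55, a mean of 2.55 ± 0.781 against 8.74 ± 1.95 (SD, n = 3). The lowest siKIFC1 library lay well above the highest control library. By replicate number the ratios were 3.88, 3.18 and 3.44. The fitted log2 fold change was 1.77 (SE 0.26, 95% interval 1.20 to 2.34), place 8 among the 14777 genes ordered from the largest rise, and it lay between 1.55 and 1.96 when each library was left out in turn. Since *KRT15* was taken for this rise, its interval, place and lack of overlap are shaped by that choice, and no test is attached to it.

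*KRT15* lies in the type I keratin cluster of chromosome 17 (GRCh38 41513745 to 41518890, minus strand), between *KRT13* and *KRT19*. *KRT13*, a keratin of the upper layers of moist layered epithelia, had 0 counts in all 6 libraries (0 counts in a library allow up to 3 counts). *KRT19*, 4726 bases away on the other side, is described above. *KRT14*, the keratin 15 relative of basal cells, had 0 to 2 counts per library, and *KRT17* had 0 or 1 (both chosen after their values were seen). Of the 29 type I keratins listed, 5 passed the filter, and *KRT15* alone was called in edgeR, DESeq2 and limma-voom, which its choice fixes. The other tested members were *KRT18*, *KRT19*, *KRT10* and *KRT222*, and 0 of these 4 were called in any of the 3 tools. Among these 4, 1 (*KRT19*) had an unadjusted p under 0.05, against 9.26% of all genes tested. *KRT10*, the keratin of upper epidermal layers, stood at 12.6 ± 2.09 RPKM in control cells with a log2 fold change of 0.01 (SE 0.16, adjusted p = 0.998 in edgeR), and 11 of the 29 were at 0 in all 6 libraries.

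Per kilobase of summed exon, the type I side of the keratin pool was larger than the type II side. The gap was wider in the siKIFC1 libraries. The RPKM of *KRT8* divided by that of *KRT18* was 1.06, 1.03 and 1.10 in the control libraries and 0.974, 0.982 and 0.992 in the siKIFC1 libraries. The groups did not overlap. Summed over all listed genes, type II keratins gave 100.4 ± 3.43 RPKM in control and 102.1 ± 8.13 RPKM in siKIFC1 libraries (SD, n = 3), while type I keratins gave 133.6 ± 9.90 and 160.4 ± 13.1. The ratio of type II to type I was 0.772, 0.709 and 0.779 in the control libraries and 0.631, 0.644 and 0.635 in the siKIFC1 libraries, again without overlap. *KRT8*, *KRT18* and *KRT19* together made up 76.3% ± 1.10 of all keratin RPKM in control and 79.5% ± 0.240 in siKIFC1 libraries. *KRT15* stayed a small part of the pool. Its RPKM was 0.492%, 0.847% and 0.810% of that of *KRT19* in the control libraries, and 1.36%, 2.27% and 2.34% in the siKIFC1 libraries. These ratios were not tested, and their size depends on the length given to each gene. No share over all genes was taken to set beside their lack of overlap. They also rest on the *KRT8* and *KRT18* counts, which are uncertain as described above. With the longest transcript the mean ratio of *KRT8* to *KRT18* was 1.74 in control and 1.61 in siKIFC1 libraries. The mean ratio of type II to type I keratins was then 0.953 in control and 0.820 in siKIFC1 libraries.

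**Figure D3:**
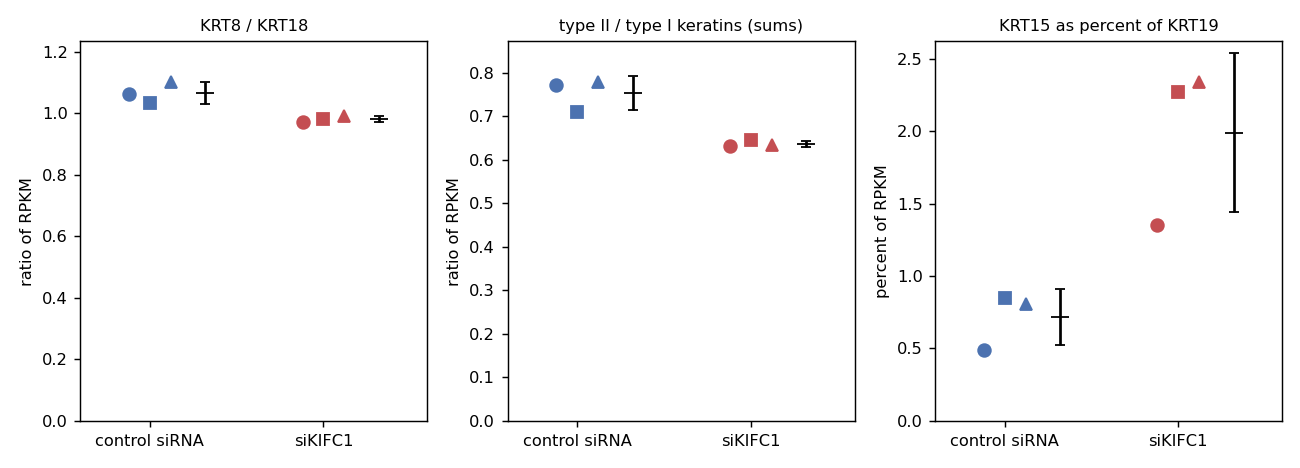
Ratios of keratin RPKM in each library (vertical axes from 0); circles, squares and triangles are replicates 1, 2 and 3, blue is control siRNA, red is siKIFC1, and black bars are the mean ± SD of 3 libraries. The ratio of *KRT8* to *KRT18* and that of all type II to all type I keratins are lower in the 3 siKIFC1 libraries than in the 3 control libraries, and *KRT15* is 1.36% to 2.34% of *KRT19* in the siKIFC1 libraries against 0.492% to 0.847% in the control libraries.

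The wider filament network held no call in the fits without the replicate block. Of 24 other intermediate filament and keratin linker genes, 16 passed the filter and 0 were called by edgeR, DESeq2 or limma-voom, with a median log2 fold change of -0.07. The best expressed were *INA*, the neuronal filament internexin, at 142 ± 3.61 RPKM in control cells (log2 fold change 0.02), *LMNB1*, a nuclear lamin, at 57.4 ± 1.10 (0.03), and *DSP*, which ties keratins to desmosomes, at 33.3 ± 4.78 (0.16). At an unadjusted p under 0.05 there was 1 of the 16, against 9.26% of all genes tested. This was *NES*, a filament of progenitor cells, with a log2 fold change of -0.36 (SE 0.12). Its adjusted p was 0.294 in edgeR and 0.0252 with the replicate block, where 3.07% of all genes were called lower. *VIM*, the mesenchymal filament, had 2 to 5 counts in every library (*NES* and *VIM* were chosen after their values were seen).

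The ESRP genes showed no call. *ESRP1* had 173, 163 and 167 CPM in the control libraries and 177, 160 and 197 CPM in the siKIFC1 libraries, where replicate 2 was the lowest of all 6 and replicate 3 the highest. The log2 fold change was 0.09 (SE 0.11, 95% interval -0.14 to 0.32, adjusted p = 0.892 in edgeR). *ESRP2* had 20.7, 21.0 and 23.7 CPM in the control libraries and 22.2, 24.3 and 21.4 CPM in the siKIFC1 libraries. The log2 fold change was 0.05 (SE 0.12, 95% interval -0.22 to 0.32, adjusted p = 0.955 in edgeR), and both intervals leave out a change of 0.33 or more in either direction. Of 30 genes known for exons that ESRP proteins regulate, 27 passed the filter, and 0 were called at the gene level by edgeR, DESeq2 or limma-voom, with a median log2 fold change of -0.05. Gene counts do not show which exons were used. At an unadjusted p under 0.05 there were 2 of the 27, against 9.26% of all genes tested. These were *ITGA6*, a laminin receptor subunit, and *PLEKHA1*, a lipid-binding adaptor. *ITGA6* had a log2 fold change of -0.37 (SE 0.14) and an adjusted p of 0.383 in edgeR, and *PLEKHA1* -0.30 (SE 0.11) and 0.331. With the replicate block both were called lower, at adjusted p of 0.00282 and 0.0329 in edgeR. In that fit 3.07% of all genes were called lower. *FGFR2* stood at 0.241 to 0.338 RPKM in siKIFC1 libraries against 0.214 to 0.452 in control libraries, and *ENAH* at 16.2 to 20.7 against 16.5 to 19.7 (*PLEKHA1*, *FGFR2* and *ENAH* were named for their role or after their values were seen). *CTNND1*, with 4 to 9 counts per library, shares its locus with a readthrough gene and is uncertain.

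*RBM47*, the third RNA-binding gene, was at the low end in control cells and higher in every siKIFC1 library. Counts were 80, 47 and 65 with control siRNA and 116, 134 and 207 with siKIFC1. On the CPM scale this was 4.80, 2.94 and 3.54 against 7.41, 8.83 and 12.7, a mean of 3.76 ± 0.949 against 9.64 ± 2.73 (SD, n = 3). The groups did not overlap. By replicate number the ratio was 1.54 for the first pair, 3.00 for the second and 3.58 for the third, a wider spread than for *KRT15*. The fitted log2 fold change was 1.36 (SE 0.25, 95% interval 0.81 to 1.90), place 21 among 14777, and it lay between 1.11 and 1.57 when each library was left out in turn. *RBM47* was taken for this rise, so its interval, place and lack of overlap are shaped by that choice, and it carries no test. In siKIFC1 cells *RBM47* reached 1.13 ± 0.319 RPKM, where *ESRP1* stood at 36.5 ± 3.72 and *ESRP2* at 4.36 ± 0.288, so it remained the lowest of the 3 regulators per kilobase. A lncRNA gene, *RBM47-AS1*, overlaps *RBM47* by 1450 bases on the other strand, and its reads cannot be told apart from those of *RBM47* without the strand setting.

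*RBM47* lies on chromosome 4 (GRCh38 40423280 to 40630852, minus strand) between *CHRNA9* and *NSUN7*. *CHRNA9*, a nicotinic receptor subunit, had 1 to 6 counts per library and was not tested. For *NSUN7*, an RNA methyltransferase family gene, it was 0.01 on the log2 scale (SE 0.14, adjusted p = 0.995 in edgeR). The 3′ UTR of *RBM47* is shown at the places that hold the 6-base word GCAACC, a word chosen from earlier results of these same libraries, so its presence is no independent evidence. The GENCODE 44 3′ UTR (2624 bases) of *RBM47* has it at 2 places on the minus strand, chr4:40425795-40425824 and chr4:40423602-40423631 (GRCh38), printed 5′ to 3′ with the word in capitals.
RBM47 site 1: ggattcacacatGCAACCtgaaagtgaaga
RBM47 site 2: aatgataacatgGCAACCaccaaactccct
In the mRNA sequence, GCAACC occurs in the 3′ UTR of 23.2% of 12957 tested genes and of 33.9% of the 2493 with a 3′ UTR of 2000 to 3500 bases. Of the other members, *GRHL2* had it 1 time in 3023 bases, and the remaining 8, *KRT15* with its 278 bases among them, had it 0 times. The word GAGATCT, chosen in the same way, occurred in 0 of the 10 members, against 8.96% of the tested genes. A match of letters is a description and does not show binding.

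Relatives of RBM47 and RNA editing genes held no call apart from *RBM47* itself in the fits without the replicate block. Of 20 listed, 9 passed the filter, *RBM47* among them, whose call its choice fixes. Of the other 8, 0 were called by edgeR, DESeq2 or limma-voom. Among these 8, 1 (*APOBEC3B*) had an unadjusted p under 0.05, against 9.26% of all genes tested. The median log2 fold change of the 9 was 0.10. *HNRNPR* and *SYNCRIP*, the best expressed of the list, stood at 28.7 ± 0.758 and 28.3 ± 1.70 RPKM in control cells. Their log2 fold changes were 0.14 (SE 0.09, adjusted p = 0.744 in edgeR) and 0.10 (SE 0.10, adjusted p = 0.845). *ADAR*, the A-to-I editing enzyme, stood at 21.0 ± 0.921 RPKM and had a fitted change of -0.06 on the log2 scale (SE 0.11, adjusted p = 0.940 in edgeR). The cytidine deaminase gene *APOBEC3B* had 5.44 to 7.40 RPKM in control and 7.71 to 11.3 RPKM in siKIFC1 libraries. Its log2 fold change was 0.58 (SE 0.17), with an adjusted p of 0.225 in edgeR. With the replicate block the adjusted p was 0.00512, in a fit where 2.75% of all genes were called higher. *APOBEC1*, the editing partner of RBM47, had 0 or 1 count per library, and its other known cofactor *A1CF* had 1 to 4 (*APOBEC3B*, *APOBEC1* and *A1CF* were chosen after their values were seen).

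In edgeR and limma-voom without the replicate block, splicing regulators of restricted tissue use gave the one further call among the listed genes. Over all lists, apart from *KRT15* and *RBM47*, DESeq2 called 3 genes higher and 3 lower. The edgeR fit with the block called 7 higher and 9 lower. Of 41 listed, 38 passed the filter. In edgeR and in limma-voom 2 were called higher, *RBM47* (by choice) and *CELF2*, and 0 lower, with a median log2 fold change of -0.01. At an unadjusted p under 0.05 there were 9 of the 38, against 9.26% of all genes tested. The groups did not overlap for 5 in the higher and 6 in the lower direction, against 7.99% and 7.52%. *RBM47* is by choice among the 9 and among the 5, so its share in these counts is no evidence. *CELF2*, a regulator of splicing and mRNA stability in brain, heart and T cells, had 75.4, 62.1 and 61.8 CPM in the control libraries and 124, 121 and 160 CPM in the siKIFC1 libraries. It rose with a log2 fold change of 1.02 (SE 0.14, adjusted p = 0.00659 in edgeR). All 3 siKIFC1 libraries were above all 3 control libraries. Without control replicate 3 the adjusted p in edgeR was 0.0588, and without each of the other 5 libraries it stayed under 0.05. An antisense gene, *CELF2-AS1*, overlaps it and had 11 to 31 counts per library. The *CELF2* 3′ UTR (7622 bases) holds GCAACC 2 times and GAGATCT 1 time. The share of genes with these words was not taken for 3′ UTRs of this length. Both words were chosen from these same libraries, and a link to the rise was not tested. Within this list DESeq2 called 3 genes higher and 2 lower, adding *RBFOX1* to the higher and *ELAVL3* and *NOVA2* to the lower. The fit with the replicate block called 3 higher (*CELF2*, *RBFOX1* and, by choice, *RBM47*) and 4 lower (*CELF5*, *ELAVL3*, *ELAVL4* and *NOVA2*). Over all genes the shares in that fit were 2.75% and 3.07%. *ELAVL3*, a neuronal RNA-binding gene, stood at 101.1 ± 3.74 RPKM in control cells and 75.4 ± 8.69 in siKIFC1 cells, with a log2 fold change of -0.42 (SE 0.11), an adjusted p of 0.128 in edgeR and 0.0003 with the block. The ubiquitous *HNRNPA1* (244 ± 21.5 RPKM, log2 fold change 0.01) and *HNRNPF* (91.9 ± 1.89 RPKM, 0.12) were not called, with adjusted p of 0.996 and 0.786 in edgeR.

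**Figure D4:**
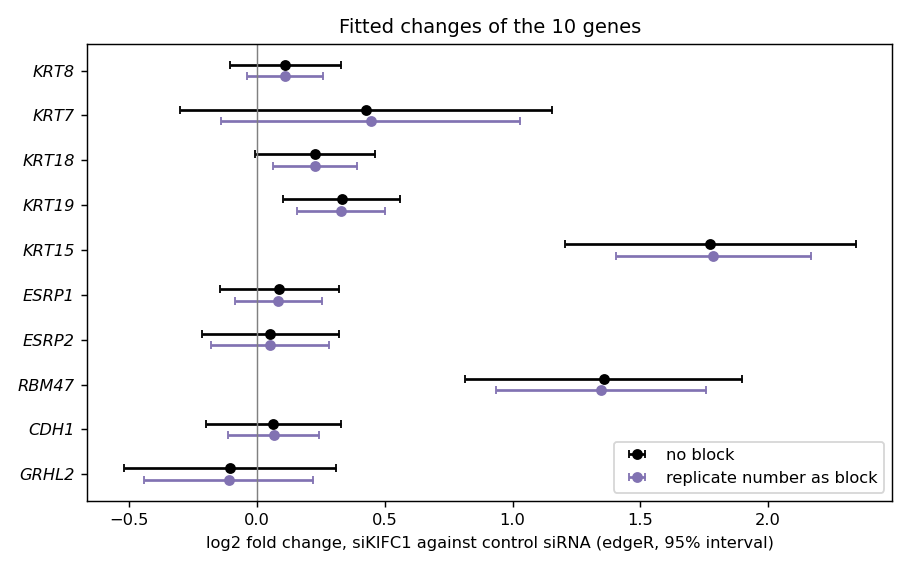
Fitted log2 fold change of siKIFC1 against control siRNA (horizontal axis) for the 10 genes, with 95% intervals from edgeR without a block (black) and with the replicate number as a block (purple). The interval of *KRT19* lies above 0 in both fits and that of *KRT18* with the block only. *KRT15* and *RBM47* were chosen for their rise, so where their intervals lie follows from that choice and is no test.

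*CDH1* had 90.0, 87.1 and 107 CPM in the control libraries and 89.7, 97.2 and 111 CPM in the siKIFC1 libraries, so the groups overlapped through most of their range. The log2 fold change was 0.06 (SE 0.12, 95% interval -0.20 to 0.33, adjusted p = 0.938 in edgeR). Around it, of 42 genes of epithelial adhesion and junctions, 37 passed the filter and 0 were called by edgeR, DESeq2 or limma-voom, with 0 at an unadjusted p under 0.05 and a median log2 fold change of 0.05 (range -0.64 to 0.56). The groups did not overlap for 1 of the 37 in the higher direction (*EPCAM*, against 7.99% of all genes tested) and for 0 in the lower (against 7.52%). *EPCAM*, an epithelial adhesion molecule, stood at 204 ± 6.17 RPKM in control and 228 ± 5.66 in siKIFC1 cells (log2 fold change 0.16, SE 0.09, adjusted p = 0.681 in edgeR). *PERP*, a desmosome gene, followed at 172 ± 11.9 and 195 ± 11.9 RPKM (0.18, SE 0.10), and *MAL2*, a gene of apical transport, at 92.2 to 99.9 and 90.04 to 110.01 RPKM over the libraries (0.09, SE 0.11).

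The mesenchymal genes and repressors of *CDH1* were mostly low. Of 25 listed, 14 passed the filter and 0 were called by edgeR, DESeq2 or limma-voom, with 2 at an unadjusted p under 0.05 (*SNAI2* and *TGFBR2*, against 9.26% of all genes tested) and a median log2 fold change of -0.02. The groups did not overlap for 3 of the 14 in the higher and 4 in the lower direction, against 7.99% and 7.52% of all genes. The *CDH1* repressors *ZEB1* and *ZEB2* had 0 to 3 and 0 to 5 counts per library. *SNAI2*, another repressor of *CDH1*, had 11.3 ± 0.526 CPM in control and 16.6 ± 1.22 CPM in siKIFC1 libraries (SD, n = 3), a log2 fold change of 0.55 (SE 0.14). Its adjusted p in edgeR was 0.114, and 0.00778 with the replicate block, a fit that called 2.75% of all genes higher and 3.07% lower. *TGFBR2*, a receptor of TGF-beta, had a log2 fold change of -0.42 (SE 0.12), an adjusted p of 0.198 in edgeR and 0.0155 with the block (these 4 genes were chosen after their values were seen). Of the best expressed, *ITGB1*, an integrin chain, stood at 22.9 ± 1.99 RPKM in control cells (log2 fold change -0.02), *CDH2* (N-cadherin) at 19.8 ± 1.32 (-0.20, SE 0.10, adjusted p = 0.590 in edgeR) and *TCF4* at 13.9 ± 1.10 (-0.02). *CDH1* and *CDH2* were thus both measured well above 0 in this line.

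*GRHL2* was the one member with a negative log2 fold change. It had 6.48, 7.76 and 8.17 CPM in the control libraries and 5.68, 7.11 and 8.02 CPM in the siKIFC1 libraries. Each siKIFC1 library was below the control library of its own number, but the groups overlapped. The log2 fold change was -0.11 (SE 0.19, 95% interval -0.52 to 0.31, adjusted p = 0.933 in edgeR), and leaving out siKIFC1 replicate 1 brought it to 0.02. Of 22 epithelial transcription factors listed, 15 passed the filter and 0 were called by edgeR, DESeq2 or limma-voom. The median log2 fold change was -0.09, with 13 of the 15 below 0, against 7079 of the 14777 genes tested. The best expressed were *FOXA2*, an endoderm factor, at 69.6 ± 3.83 RPKM in control cells (log2 fold change -0.09, adjusted p = 0.897 in edgeR), *KLF5* at 30.5 ± 2.31 (-0.10, adjusted p = 0.899) and *TFCP2L1*, a factor related to the GRHL family, at 22.2 ± 2.42 (-0.12, adjusted p = 0.880). The paralog *GRHL1* was the 1 gene of the 15 at an unadjusted p under 0.05, against 9.26% of all genes tested. Control libraries had 84, 78 and 108 counts of it and siKIFC1 libraries 109, 114 and 129, with a log2 fold change of 0.50 (SE 0.18, adjusted p = 0.343 in edgeR). *GRHL3* had 1 or 2 counts per library (*GRHL1* and *GRHL3* were chosen after their values were seen).

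Marker genes for the identity of the line were also read beside the epithelial genes. Of 18 neuroendocrine SCLC markers, 17 passed the filter and 0 were called in edgeR or limma-voom, with a median log2 fold change of 0.12. At an unadjusted p under 0.05 there were 6 of the 17, against 9.26% of all genes tested, and the groups did not overlap for 6 in the higher and 1 in the lower direction, against 7.99% and 7.52%. DESeq2 called *SYT1* higher and *NCAM1* lower. The fit with the replicate block called 2 higher and 1 lower, against 2.75% and 3.07% of all genes in that fit. *CHGA* (chromogranin A) had the largest fitted change in this list, 2.00 (SE 0.66, adjusted p = 0.436 in edgeR), from 147, 104 and 142 counts in the control libraries to 145, 818 and 482 in the siKIFC1 libraries (*CHGA*, *SYT1* and *NCAM1* were chosen after their values were seen). The *CHGA* count of siKIFC1 replicate 1 was near the control level. Of 10 markers of other SCLC subtypes, 6 were tested and 0 were called by edgeR, DESeq2 or limma-voom, with 0 at an unadjusted p under 0.05 and a median of 0.08. The best expressed were *MYC* at 37.9 to 40.7 RPKM in the control libraries, *ASCL2* at 2.01 ± 0.487 and *HES1* at 1.59 ± 0.162. Of 20 markers of other cell types (fibroblast, blood, vessel, normal lung and liver), 8 were tested and 0 were called by edgeR, DESeq2 or limma-voom, with 0 at an unadjusted p under 0.05 and a median of 0.07. Their summed level was 36.9 to 39.97 CPM in the control and 32.4 to 46.2 CPM in the siKIFC1 libraries, and the best expressed was the cilium factor *FOXJ1* at 4.70 ± 0.786 RPKM. In the lists for which this was not yet given, the groups did not overlap for 3 of the 9 RBM47 relatives and editing genes in the higher direction (*RBM47* by choice, *APOBEC3B* and *HNRNPR*) and 0 in the lower. For the 27 genes with ESRP-regulated exons these counts were 1 and 2, for the 16 other filament and linker genes 0 and 1, and for the 15 epithelial transcription factors 1 and 0. For the 6 markers of other subtypes they were 1 and 0, and for the 8 markers of other cell types 1 and 1.

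Across the 6 libraries, the genes whose log2 CPM followed *KRT15* most closely among 11758 genes with a mean log2 CPM of at least 2 were *FHL1* (Pearson's r = 0.993), *ID4* (0.991) and *CTHRC1* (0.987). For *RBM47* they were *PNMA2* (0.993), *C1GALT1C1* (0.991) and *HTR1D* (0.989). The 6 libraries fall into 2 groups that both genes separate by choice, and they share the replicate numbers, so these values describe order and carry no test. Each of these genes had a smaller fitted change than the gene it followed, and *KRT15* and *RBM47* had been chosen for their rise. *FHL1* went from 21.2 to 31.1 CPM on average (log2 fold change 0.55, SE 0.12), *ID4* from 166 to 199 (0.26, SE 0.10) and *CTHRC1* from 36.5 to 43.2 (0.24, SE 0.11). *HTR1D*, a serotonin receptor gene, went from 5.69 to 10.6 CPM (0.90, SE 0.19), *C1GALT1C1* from 27.7 to 31.7 (0.20, SE 0.11) and *PNMA2* from 70.3 to 75.3 (0.10, SE 0.10).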

How the data were processed

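The authors aligned the reads of 6 H146 libraries to GRCh38 with HISAT2 (version 2.2.1), counted them per gene with featureCounts (version 2.0.8) and deposited raw counts for 28395 NCBI gene IDs. The submitters' notes also name DESeq2 1.46.0 and R 4.4.2. The gene annotation, strand setting and treatment of reads with several sites were not given in the sources used here. Symbols were matched for 27745 IDs (IDs without one held 0.0618% of the counts) and GENCODE 44 exon lengths for 25681. Genes passed edgeR's filterByExpr, with *KIFC1* kept (14777 genes). The main test was the edgeR (version 4.0.16) quasi-likelihood test with TMM scaling and Benjamini-Hochberg adjustment over all genes, threshold 0.05, on R 4.3.3. CPM is TMM-scaled, and RPKM is CPM per kilobase of summed exon. A fold interval covers the spread between libraries. The biological coefficient of variation was 13.1%. Counts of the 14777 genes were simulated with 200 changed by 1 on the log2 scale, and 14597 passed the filter again. Of the 200, 158 (79%) were called, with 10 false calls. The simulation held no replicate effect. Its share is pooled over all levels, so it does not describe low genes or smaller changes.

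Samples were grouped by the treatment in their labels. Same-numbered libraries of the groups deviated together from their group means. Over 11758 genes r was 0.484, 0.414 and 0.491, against -0.457 to 0.0234 for different numbers. The main edgeR fit left this pairing out, as did DESeq2 and limma-voom. The edgeR fit with the number as a block takes it in. It is given where it changes a call or moves a count of calls by over 1.5 times.

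The alternatives were DESeq2 (version 1.42.0) size factors or its Wald test, library size scaling, limma-voom (limma 3.58.1), a filter of 10 counts in each library or none, the replicate block, the longest transcript length, and leaving out each library. The 10 members and the 12 lists (303 genes) were chosen with earlier results of these data known. The genes named were the members, *KIFC1*, the called genes and the 3 best expressed of each list, the 3 most alike *KRT15* and *RBM47*, and the neighbours of these on the chromosome. One item of the lists is not reported here. Others are named as chosen after their values were seen.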

Additional observations from a re-analysis of the deposited data

How the results depend on the processing

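Over all genes, 48 were called higher and 55 lower in edgeR. The counts were 121 and 144 with no filter, 125 and 145 in DESeq2, and 407 and 454 with the replicate block, and leaving out 1 library gave 9 to 194 higher and 15 to 274 lower. Apart from *KRT15* and *RBM47*, 1 listed gene was called higher and 0 lower. There were 2 and 1 with no filter, 3 and 3 in DESeq2, 7 and 9 with the block, and 0 to 6 higher and 0 to 4 lower without 1 library. The 8 genes taken for their function had 0 calls, but 1 higher (*KRT19*) with the block and 0 to 1 higher without 1 library. The sign changed for *GRHL2* without siKIFC1 replicate 1 (log2 fold changes from -0.23 to 0.0185 over the 6 libraries left out), for *ESRP2* without siKIFC1 replicate 2 (-0.0084 to 0.12) and for *CDH1* without siKIFC1 replicate 3 (-0.0223 to 0.16). Of the 10 places in the order of levels, 7 were kept with the longest transcript length, and 8 to 10 when 1 control library was left out. With that length, the ratio of *KRT8* to *KRT18* was 1.74 in control and 1.61 in siKIFC1 libraries, and that of type II to type I keratins 0.953 and 0.820. The replicate block changed no other call among the 8. The cause of these shifts was not tested. With 3 libraries a group, 1 cell line and 1 siRNA, and with *KRT7*, *KRT15* and *RBM47* below 210 counts per library, small changes of low genes were not detectable.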
